A study of Mus musculus with 18 samples.

Results

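The 39 genes described here encode proteins that copy the genome in S phase, and they were chosen by function, with earlier results of these data known. They comprise 6 subunits of the MCM helicase (Mcm2 to Mcm7), 4 origin recognition and loading factors (Orc1, Orc6, Cdc6 and Cdt1), and 6 proteins that join and activate the helicase (Cdc45, Mcm10 and Gins1 to Gins4). A further 7 encode the sliding clamp and its loaders (Pcna, Rfc1 to Rfc5 and Chtf18), and 6 encode polymerases and primase (Pola1, Pola2, Prim1, Prim2, Pold1 and Pole). The others are Rpa1, Rpa2, Fen1 and Lig1, which bind single strands or finish the lagging strand, Rrm1, Rrm2, Tyms and Tk1, which supply nucleotides, and Dtl and Clspn, which act in S phase control. All 39 were found among the 38355 genes of the count tables, and all 39 were among the 14876 that passed the filter on low counts.

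Before S phase, the origin recognition complex with CDC6 and CDT1 loads MCM rings onto DNA. At the start of S phase CDC45 and the GINS complex join each ring to form the active helicase, and the polymerases, clamp and single strand binding proteins assemble behind it. Genes of this machinery are classical targets of the E2F transcription factors, which the retinoblastoma protein holds in check until cyclin D kinases phosphorylate it. Cyclin D2, encoded by Ccnd2, is one of these cyclins. Most heart muscle cells of the adult mouse have left the cell cycle, and most of these genes are expressed at low levels in the adult ventricle.

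RNA from left ventricles was sequenced in 18 libraries of (DBA/2J x C3HeB/FeJ)F1 mice. The cycD2 mice carry an MHC-cycD2 transgene, whose promoter is active in heart muscle cells. Of these, 5 had a Shunt between aorta and vena cava, which loads the ventricle with volume, 3 had TAC, a constriction of the transverse aorta that loads it with pressure, and 5 were sham-operated. WT mice of the same background (n = 5) had neither the transgene nor surgery. Operated mice were 8 weeks old at surgery, and the labels name a sham operation for either procedure without saying which one these sham mice had. The comparison of sham with WT thus joins the transgene with the sham operation. The labels do not give the time from surgery to tissue collection, so whether sham and WT mice were of the same age then cannot be told. The labels do not say that each library came from a separate animal, so the spread behind each p-value is that of these libraries and may be technical in part.

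The libraries held 19297821 to 30594075 gene counts. Levels are given as CPM, counts divided by the library total after TMM adjustment. Ccnd2 was at 17739 to 22211 CPM in Shunt libraries, 22050 and 25843 CPM in TAC replicates 1 and 4, 21129 to 30478 CPM in sham libraries and 141 to 189 CPM in WT libraries. The library labelled cycD2 TAC replicate 2 had 228 CPM, near the WT level and against its label. The counts of called members and the calls of TAC are therefore given with and without it, while counts under other tools and covariates rest on all 3 TAC libraries. This library also widens the spread that all comparisons share, since the spread was estimated over all 18 libraries. By Xist and Y-linked genes all Shunt libraries and TAC replicates 1 and 2 were female, and all other libraries male, so that sex and Shunt surgery cannot be told apart. By the clock genes Arntl and Dbp, all TAC libraries, the first 2 sham replicates and the first 3 WT replicates were in one phase, and the others in the opposite one. Summed over 9 heart muscle markers, the level was 96534 to 109498 CPM in sham and 80383 to 95280 CPM in WT ventricles, the tissue that the labels name.

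To show what the promoters of these genes look like, the windows of the members with the smallest p in the comparison of sham with WT are printed here: Rpa1, Mcm7 and Rrm1. Each runs from 250 bases before to 50 bases after an annotated start, 5′ to 3′ on the strand of the gene (RefSeq, GRCm38.p6), and Mcm7 has a pair of windows. Capitals mark matches to E2F-like sites, searched on both strands as the words TTCCCGC and then TTCGCGC, besides TTGGCGC and also TTGCCGC. The Rpa1 window (chr11:75348334-75348633, minus strand) has no capitals. The first Mcm7 window (chr5:138171834-138172133, minus strand) has 3 matches, at positions -165, 18 and 21 from the start, of which the last 2 overlap each other. The second Mcm7 window (chr5:138171217-138171516, minus strand) and the Rrm1 window (chr7:102441445-102441744, plus strand) have 1 match each, at -113 and -67.
Rpa1: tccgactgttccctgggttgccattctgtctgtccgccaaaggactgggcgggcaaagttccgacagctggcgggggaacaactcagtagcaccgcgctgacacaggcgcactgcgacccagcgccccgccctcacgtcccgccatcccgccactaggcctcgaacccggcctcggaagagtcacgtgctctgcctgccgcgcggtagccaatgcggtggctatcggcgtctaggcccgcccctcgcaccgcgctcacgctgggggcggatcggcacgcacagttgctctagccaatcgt
Mcm7 window 1: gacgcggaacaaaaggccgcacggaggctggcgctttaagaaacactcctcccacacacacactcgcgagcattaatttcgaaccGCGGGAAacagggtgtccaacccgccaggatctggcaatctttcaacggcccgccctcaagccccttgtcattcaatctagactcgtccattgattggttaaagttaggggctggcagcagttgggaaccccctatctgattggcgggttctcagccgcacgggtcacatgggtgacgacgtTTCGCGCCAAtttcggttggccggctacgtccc
Mcm7 window 2: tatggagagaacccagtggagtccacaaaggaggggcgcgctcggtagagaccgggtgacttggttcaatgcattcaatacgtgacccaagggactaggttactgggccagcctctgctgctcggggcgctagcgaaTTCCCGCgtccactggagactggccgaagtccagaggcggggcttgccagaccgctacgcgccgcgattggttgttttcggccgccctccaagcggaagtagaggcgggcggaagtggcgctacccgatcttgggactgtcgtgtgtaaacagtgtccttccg
Rrm1: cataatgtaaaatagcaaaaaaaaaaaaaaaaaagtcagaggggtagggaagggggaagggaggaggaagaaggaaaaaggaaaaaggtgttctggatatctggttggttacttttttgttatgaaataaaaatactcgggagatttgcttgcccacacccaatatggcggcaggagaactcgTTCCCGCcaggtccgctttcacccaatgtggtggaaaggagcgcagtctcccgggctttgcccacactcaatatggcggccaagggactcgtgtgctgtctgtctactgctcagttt
Windows were given for 32 members (for Mcm4, Gins1, Gins2, Gins4, Rfc2, Prim2 and Pole none was used here). An E2F-like match was present in 22 of the 32, or 68.8%, against 10.9% of 27025 genes of the same table. These 27025 genes were not limited to those past the filter on low counts, which all members passed, so the sets are unlike. Among the members called higher in sham than in WT an E2F-like match was present in 16 of 22 (72.7%), and among the other members in 6 of 10 (60.0%). Members without a match include Mcm2, Pcna, Cdc45 and Rpa1, and members with one that was not called include Mcm6, Cdc6, Orc1 and Clspn, so members with and without a match stand on both sides of the threshold. The CCAAT box, searched as CCAAT, was present in 22 of 32 members (68.8%) and in 41.1% of genes. The CHR, an element best known from G2 and mitosis genes and searched as TTTGAA, was present in 4 of 32 members (12.5%) and in 20.2% of genes. Of the 3582 E2F-like matches in all windows, 161 overlap a CCAAT match.

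In cycD2 sham ventricles the replication genes were broadly higher than in WT. Of the 39 members, 28 rose and 0 fell (edgeR's quasi-likelihood test, Benjamini-Hochberg adjusted p under 0.05 over all genes tested), while 13.5% of all genes tested rose and 14.9% fell. At an unadjusted p under 0.05, 29 members were higher and 1, Pola2, was lower, and DESeq2 and limma-voom called 0 members lower. The median log2 fold change was 0.75 over the 39 members and -0.01 over all genes tested. In 25 of the 39 members every sham library lay above every WT library, as it did in 10.6% of all genes tested. Without the library labelled TAC replicate 2, 29 members rose, Mcm6 being the one gained, and 0 fell (1, Pola2, at an unadjusted p under 0.05), against 15.8% and 14.3% of all genes. Dtl, Gins2, Gins3, Mcm3, Rfc4 and Rrm2 did not pass with limma-voom, which called 22 members higher, and Gins2, Gins3 and Rrm2 did not pass with the clock covariate. The members varied among themselves, by log2 fold changes of -0.29 to 2.51, with 37 of 39 above 0.

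**Figure D1:**
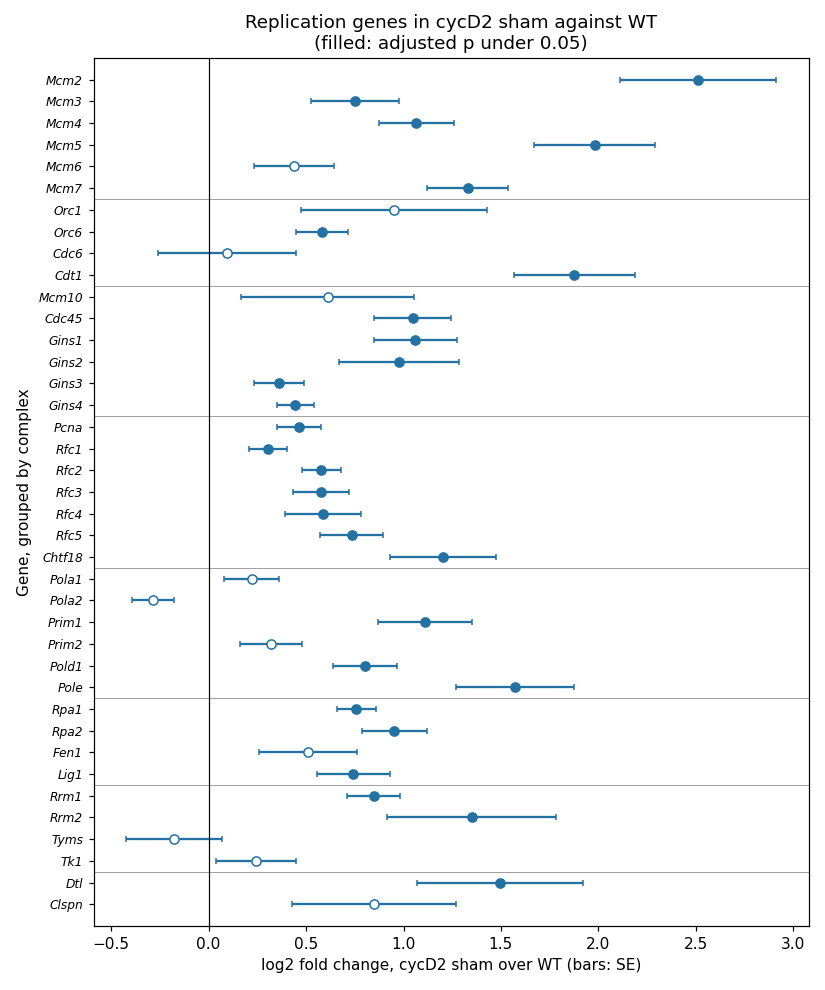
Log2 fold change of each of the 39 replication genes in cycD2 sham over WT ventricles, with the SE as bars, grouped by complex; filled points passed an adjusted p of 0.05. The rises run up to 2.51 (Mcm2), Pola2 at -0.29 and Tyms at -0.18 lie left of 0, and all 7 clamp and clamp loader genes are filled.

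In the MCM helicase, the ring that unwinds DNA, 5 of 6 subunits rose. Mcm2 (GRCm38 chromosome 6, 88883474 to 88898780) had 51.0, 47.9, 45.7, 43.2 and 48.2 CPM in the 5 sham libraries and 8.13, 6.08, 7.62, 8.91 and 10.6 CPM in the 5 WT libraries. The lowest sham library was thus far above the highest WT library, a 5.70-fold difference (log2 fold change 2.51 ± 0.40 SE, adjusted p = 0.000363), and the SE is 0.10 without the library labelled TAC replicate 2. Mcm5 (GRCm38 chromosome 8, 75109569 to 75128439) had 26.0, 21, 26.0, 26.7 and 25.0 CPM in sham against 6.38, 4.79, 5.11, 6.74 and 8.47 CPM in WT libraries, a 3.95-fold rise (adjusted p = 0.000255). Mcm7 (GRCm38 chromosome 5, 138164583 to 138172422), whose windows stand above, had 20.9, 18.6, 22.3, 21.5 and 20.4 CPM in sham and 8.92, 6.50, 6.68, 9.99 and 9.05 CPM in WT libraries, again without overlap (2.51-fold, adjusted p = 0.000203). Mcm4 rose 2.09-fold and Mcm3 1.68-fold. Mcm6 had the largest p of the 6, with 10.9, 11.8, 13.6, 14.1 and 13.1 CPM in sham and 10.1, 7.68, 6.98, 10.3 and 11.7 CPM in WT libraries. Its groups overlapped, and it missed the threshold with all 18 libraries (log2 fold change 0.44 ± 0.20, adjusted p = 0.12) and passed without the library labelled TAC replicate 2 (0.46 ± 0.16, adjusted p = 0.0341).

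The 6 MCM proteins form a ring with a single copy of each, so their levels were also set per kb of annotated exon. In WT libraries Mcm2 was the lowest of the 6 at 1.19 ± 0.237 CPM per kb (SD, n = 5) and Mcm4 the highest at 3.69 ± 0.492. In sham libraries Mcm4 was at 7.74 ± 0.463 CPM per kb, with Mcm2 next at 6.79 ± 0.419 and Mcm5 at 6.25 ± 0.571. Mcm6 was the lowest there, at 2.72 ± 0.283 CPM per kb. Mcm2 thus stood next after Mcm4 in sham ventricles and last in WT ventricles, although Mcm2 and Mcm5 in sham libraries differ by about their spread. Exon length is that of all annotated transcripts joined, so a gene with long rare isoforms comes out low on this scale.

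Among the origin and loading factors Cdt1 and Orc6 rose, and Cdc6 and Orc1 did not pass. Cdt1, which brings MCM rings to origins, had 9.25, 7.09, 9.33, 9.36 and 9.56 CPM in sham against 2.79, 1.34, 1.67, 3.26 and 2.99 CPM in WT libraries, with no overlap (3.67-fold, adjusted p = 0.00034). Orc6, a subunit of the origin recognition complex, averaged 8.58 ± 0.499 CPM in sham and 5.73 ± 0.469 CPM in WT ventricles (SD, n = 5 each; 1.5-fold, adjusted p = 0.00308). Cdc6, which acts with CDT1 in loading, stood at 0.698, 0.679, 1.20, 0.959 and 1.11 CPM in sham and 0.847, 0.464, 0.737, 0.950 and 1.29 CPM in WT libraries. These values interleave (log2 fold change 0.09 ± 0.35, adjusted p = 0.872). Orc1, the large subunit of the origin recognition complex, was under 1 CPM in every sham and WT library, with means of 0.641 ± 0.150 and 0.328 ± 0.128 CPM (adjusted p = 0.147), so that its 4 to 35 counts per library over the whole series leave a wide error.

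Of the 6 helicase activation genes, 5 rose. Cdc45, which joins the ring at the start of S phase, had 7.59, 6.26, 7.31, 7.67 and 6.51 CPM in sham and 2.74, 3.09, 3.44, 3.93 and 3.83 CPM in WT libraries, without overlap (2.07-fold, adjusted p = 0.000762). All 4 genes of the GINS complex, which holds CDC45 on the ring, rose: Gins1 2.08-fold, Gins2 1.97-fold, Gins4 1.36-fold and Gins3 1.28-fold. For Gins2, 67.3% of the annotated exon bases are shared with Gse1, so reads of these genes may not be told apart. Mcm10, which is needed to start unwinding, was one of the least abundant members at 0.567, 0.566, 0.506, 0.685 and 0.398 CPM in sham and 0.299, 0.309, 0.541, 0.271 and 0.357 CPM in WT libraries. Its groups overlapped (log2 fold change 0.61 ± 0.44, adjusted p = 0.326).

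All 7 genes of the clamp and its loaders rose, mostly by small factors. Pcna, the ring that tethers polymerases to DNA, averaged 19.4 ± 2.41 CPM in sham and 14.1 ± 1.18 CPM in WT ventricles (SD, n = 5 each), a 1.38-fold rise (adjusted p = 0.00479). The pseudogene Pcna-ps2 held 942 counts over all libraries against 8067 for Pcna, and reads may be split between them. Rfc2, a subunit of the clamp loader, had 27.0, 24.9, 25.7, 28.8 and 27.5 CPM in sham and 18, 17.2, 16.0, 19.6 and 18.9 CPM in WT libraries, without overlap (1.49-fold, adjusted p = 0.000422). Rfc4, another subunit, had 14.6, 11.9, 12.8, 13.8 and 14.8 CPM in sham and 9.37, 9.74, 8.89, 8.09 and 9.05 CPM in WT libraries. Its groups did not overlap either (1.5-fold), though its adjusted p of 0.0303 was the largest of the 7. Rfc1, the large subunit, had 66.6, 62.7, 83.0, 71.7 and 72.5 CPM in sham and 55.4, 53.0, 56.7, 62.8 and 60.4 CPM in WT libraries, where sham replicate 2 lay below the highest WT library by a small margin (1.24-fold, adjusted p = 0.0238). Rfc5 rose 1.66-fold and Rfc3 1.49-fold. The largest rise of the 7 was 2.3-fold in Chtf18, which takes the place of RFC1 in a loader that also serves sister chromatid cohesion.

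Among the polymerase genes Pole, Pold1 and Prim1 rose, and Pola1, Pola2 and Prim2 did not pass. Pole, the catalytic subunit of the leading strand polymerase, had 6.11, 5.05, 9.84, 8.12 and 8.23 CPM in sham against 2.54, 2.47, 2.01, 3.21 and 2.27 CPM in WT libraries, a 2.97-fold rise without overlap (adjusted p = 0.00106). Pold1, that of the lagging strand, rose 1.74-fold (adjusted p = 0.00147). In the polymerase alpha and primase complex, which lays down primers, Prim1, the catalytic primase subunit, passed (2.16-fold, adjusted p = 0.00225). Pola1, its catalytic subunit, had 11.8, 10.1, 10.2, 11.1 and 9.25 CPM in sham and 8.67, 7.27, 10.0, 10.5 and 8.51 CPM in WT libraries, with overlap (log2 fold change 0.22 ± 0.14, adjusted p = 0.261). Prim2 had a log2 fold change of 0.32 ± 0.16 (adjusted p = 0.142). Pola2, the accessory subunit, stood on the other side, at 14.3, 13.4, 15.4, 16.0 and 13.4 CPM in sham and 19.7, 14.2, 16.5, 20.1 and 17.8 CPM in WT libraries (-0.29 ± 0.11, adjusted p = 0.0581). It did not pass here and was called lower under some of the other settings given at the end. Whether the subunits of the complex differ from each other in their change was not tested.

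**Figure D2:**
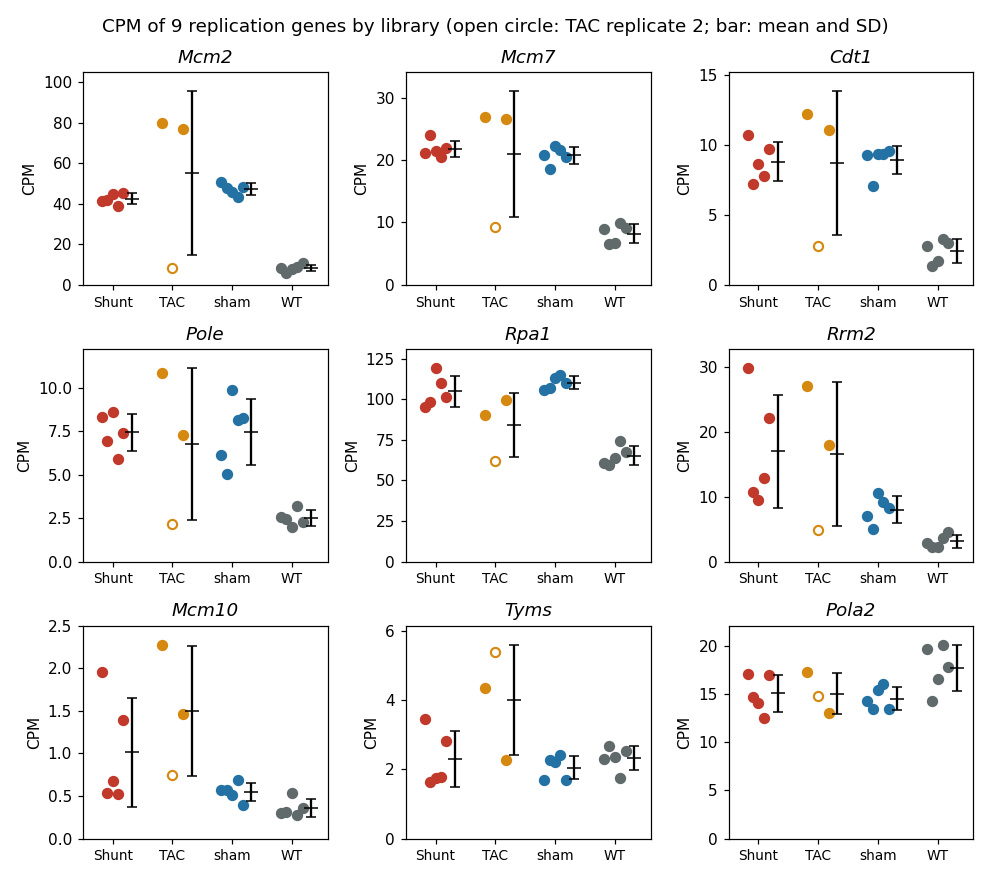
CPM of 9 replication genes in each library, with groups in the order Shunt, TAC, sham and WT; bars give the mean and SD, and the open circle is the library labelled cycD2 TAC replicate 2. That library lies among WT for Mcm2 (8.32 CPM), Mcm7, Cdt1 and Pole, but is the highest of all 18 for Tyms (5.40 CPM).

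Of the genes for single strand binding and the lagging strand, Rpa1 had the smallest p of all 39 members. Rpa1 (GRCm38 chromosome 11, 75298166 to 75348324), the large subunit of the single strand binding complex, had 106, 107, 113, 115 and 109.9 CPM in sham and 60.9, 59.4, 63.7, 74.2 and 67.4 CPM in WT libraries. The groups were far apart for their spread (1.69-fold, log2 fold change 0.76 ± 0.10, adjusted p = 3.89e-05). Its partner Rpa2 rose 1.94-fold and the DNA ligase gene Lig1, which seals lagging strand fragments, 1.67-fold. Fen1, which trims the flaps between fragments, had 1.4, 0.830, 1.01, 1.1 and 1.06 CPM in sham and 0.698, 0.619, 0.688, 0.995 and 0.758 CPM in WT libraries, and did not pass (log2 fold change 0.51 ± 0.25, adjusted p = 0.139). It shares 84.2% of its annotated exon bases with Tmem258 and Gm10143, so its count is uncertain.

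In nucleotide supply both subunits of ribonucleotide reductase, which makes deoxyribonucleotides, rose. Rrm1 (GRCm38 chromosome 7, 102441695 to 102469771) had 43.2, 37.4, 43.8, 40.5 and 39.6 CPM in sham and 23.3, 22.0, 21.3, 23.4 and 23.7 CPM in WT libraries, without overlap (1.8-fold, adjusted p = 0.000248). Rrm2, the subunit known to be limited to S phase, had 7.07, 5.05, 10.5, 9.27 and 8.23 CPM in sham and 2.84, 2.27, 2.21, 3.71 and 4.59 CPM in WT libraries (2.55-fold, adjusted p = 0.0285). Its lowest sham library lay just above its highest WT library. The genes for thymidine nucleotides did not pass. Tyms, thymidylate synthase, had 1.70, 2.26, 2.21, 2.42 and 1.68 CPM in sham and 2.29, 2.68, 2.36, 1.76 and 2.54 CPM in WT libraries, fully interleaved (log2 fold change -0.18 ± 0.25, adjusted p = 0.634), and Tk1, thymidine kinase, averaged 2.64 ± 0.247 CPM in sham and 2.22 ± 0.559 CPM in WT ventricles (SD, n = 5 each; adjusted p = 0.402).

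Of the genes of S phase control, Dtl rose. Dtl, an adaptor of the ubiquitin ligase that removes CDT1 once S phase has begun, had 2.92, 1.58, 2.3, 2.24 and 1.55 CPM in sham and 0.548, 0.619, 0.983, 0.859 and 0.713 CPM in WT libraries, without overlap (2.82-fold, adjusted p = 0.0142). Clspn, claspin, which passes the signal of stalled forks to the checkpoint kinase CHK1, had 1.05, 1.13, 1.79, 1.23 and 1.46 CPM in sham and 1.15, 0.516, 0.541, 0.452 and 1.03 CPM in WT libraries. WT replicate 1 lay above the lowest sham library and WT replicate 5 just below it (log2 fold change 0.85 ± 0.42, adjusted p = 0.145).

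Summed over the 6 subunits, the MCM level was 152, 138, 153, 151 and 152 CPM in the sham libraries and 57.3, 45.2, 46.1, 60.5 and 65.6 CPM in the WT libraries, 2.72 times as high in sham by the means. The clamp genes together were at 147 ± 10.3 CPM in sham and 108 ± 6.52 CPM in WT ventricles (SD, n = 5 each), 1.36 times as high. The ratio was 2.33 for Dtl and Clspn, 2.04 for origin and loading factors, 1.76 for nucleotide supply, 1.73 for RPA, Fen1 and Lig1, 1.55 for helicase activation and 1.33 for polymerases. Over all 39 members the sum was 625 ± 36.1 CPM in sham and 363 ± 33.3 CPM in WT ventricles. These sums weight each gene by its abundance and carry no test.

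**Figure D3:**
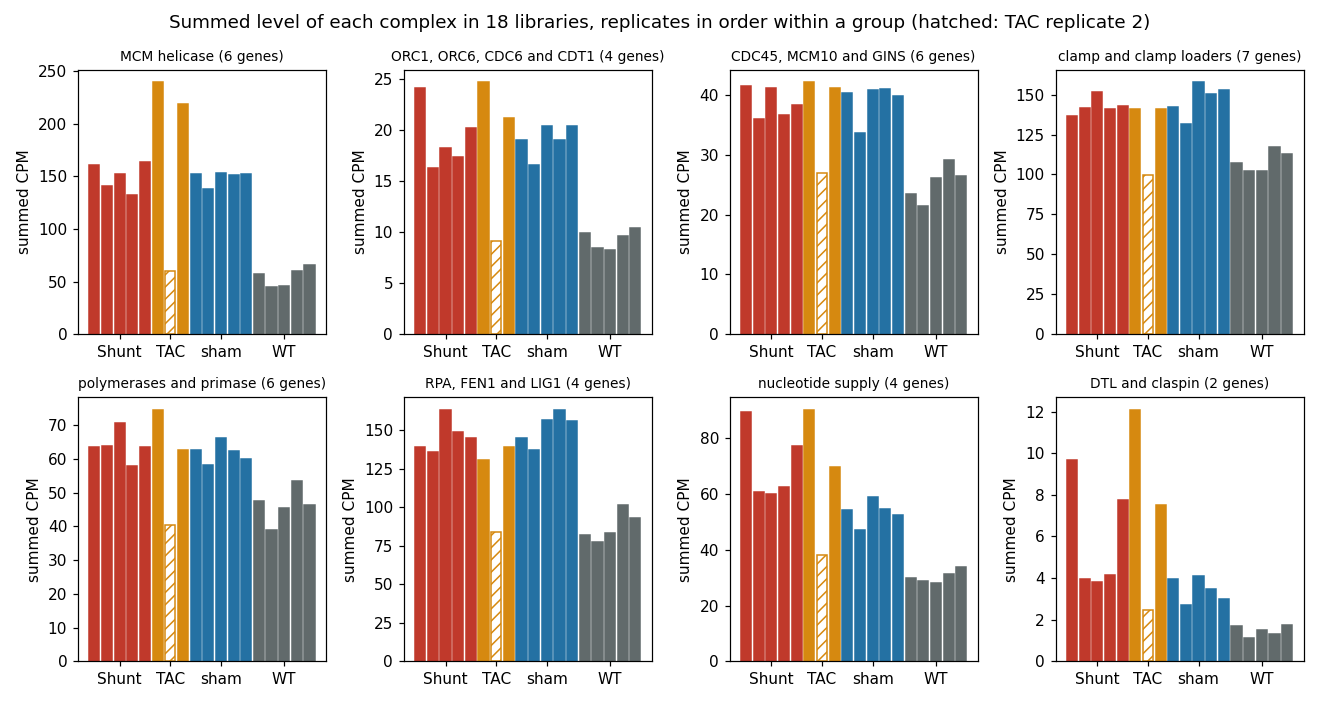
Summed CPM of the genes of each replication complex in every library, as bars, with groups in the order Shunt, TAC, sham and WT and replicates in order within each; the hatched bar is the library labelled cycD2 TAC replicate 2. The MCM sum of that library, 59.6 CPM, lies in the WT range of 45.2 to 65.6 CPM, while TAC replicates 1 and 4 are at 239 and 219 CPM, above every sham library.

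Among 47 other replication genes that are not members, 23 rose and 3 fell in sham over WT, beside 13.5% and 14.9% of all genes tested. The counts that fell, here and in the lists below, were small, and whether they differ from that share was not tested. Of 13 origin and licensing partners 7 rose and 1 fell, of 18 replisome partners 9 rose, of 7 genes for chromatin and methylation at the fork 4 rose, and of 9 genes of nucleotide supply 3 rose and 2 fell. Gmnn, geminin, which binds CDT1 and blocks reloading of origins, fell: it had 41.0, 34.0, 43.5, 47.9 and 39.8 CPM in sham against 68.3, 67.7, 61.8, 62.9 and 64.8 CPM in WT libraries, without overlap (log2 fold change -0.66 ± 0.10, adjusted p = 9.17e-05). Cdt1 and its inhibitor thus moved in opposite directions. Mcmbp, an MCM binding protein, averaged 49.7 ± 3.16 CPM in sham and 40.4 ± 0.876 CPM in WT ventricles (SD, n = 5 each; adjusted p = 0.00148). Pold2, the accessory subunit of the lagging strand polymerase, rose 1.66-fold, and Rnaseh2b, part of the nuclease that removes ribonucleotides from DNA, 1.45-fold. Dnmt1, which copies DNA methylation onto the new strand, averaged 45.8 ± 2.59 CPM in sham and 29.0 ± 3.74 CPM in WT ventricles (adjusted p = 0.000281), and Nasp, a histone chaperone, rose 1.57-fold. Dck, deoxycytidine kinase of the salvage route, rose 1.52-fold. Shmt1, which feeds one-carbon units to thymidylate synthesis, fell (log2 fold change -0.80 ± 0.18, adjusted p = 0.00277), as did Rrm2b (-0.26, adjusted p = 0.0425), the ribonucleotide reductase subunit that p53 induces. Without the library labelled TAC replicate 2, 27 of the 47 rose and 2 fell, beside 15.8% and 14.3% of all genes. Rrm2b then no longer passed (adjusted p = 0.0531).

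Other measures moved with this comparison. The 9 heart muscle markers summed higher in sham than in WT without overlap, by the values above, and 2 of the 9, Myh6 and Myh7, were called higher, or 5 of 9 without the library labelled TAC replicate 2. Of reads counted to a gene, ambiguous or without a feature, 14.9% to 17.9% had no feature in sham and 19% to 22.8% in WT libraries. The share marked as not aligned uniquely was 39.1% to 41.9% in sham and 43.1% to 45.9% in WT libraries. Mki67 and Top2a, markers of cycling cells that are not members, had log2 fold changes of 0.42 ± 0.32 and 0.75 ± 0.33 and did not pass (adjusted p = 0.355 and 0.097). The 5 endothelial markers summed to 806 to 1087 CPM in sham and 1007 to 1332 CPM in WT libraries, and 2 of them were lower. The 5 fibroblast markers summed to 786 to 1297 CPM in sham and 987 to 1236 CPM in WT libraries, and none passed with all 18 libraries. Of the 7 macrophage and leukocyte markers, with sums of 153 to 256 CPM in sham and 143 to 205 CPM in WT libraries, Cd3e, a T cell marker, was higher with all 18 libraries. It had 3.10, 2.75, 1.98, 2.28 and 1.55 CPM in sham and 0.698, 0.258, 0.541, 0.271 and 0.134 CPM in WT libraries, without overlap, and 0.513 CPM in the library labelled TAC replicate 2. The 4 atrial markers summed to 84.5 to 782 CPM in sham and 132 to 352 CPM in WT libraries, and went both ways. Myl4 and Myl7 were higher, Myl4 with 53.0, 219.8, 40.2, 55.8 and 375 CPM in sham and 5.53, 19.6, 4.47, 3.66 and 4.55 CPM in WT libraries. Nppa was lower, with 36.5, 53.0, 42.9, 42.7 and 51.7 CPM in sham and 347, 129, 127, 170.4 and 310.2 CPM in WT libraries. The part of these measures in the result was not tested. In bulk RNA, fewer cells of a type and less RNA per cell cannot be told apart. Within the clock phase of sham replicates 1 and 2 and WT replicates 1 to 3, the MCM sum was 152 and 138 CPM in sham and 57.3, 45.2 and 46.1 CPM in WT. Within the opposite phase it was 153, 151 and 152 CPM in sham and 60.5 and 65.6 CPM in WT.

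**Figure D4:**
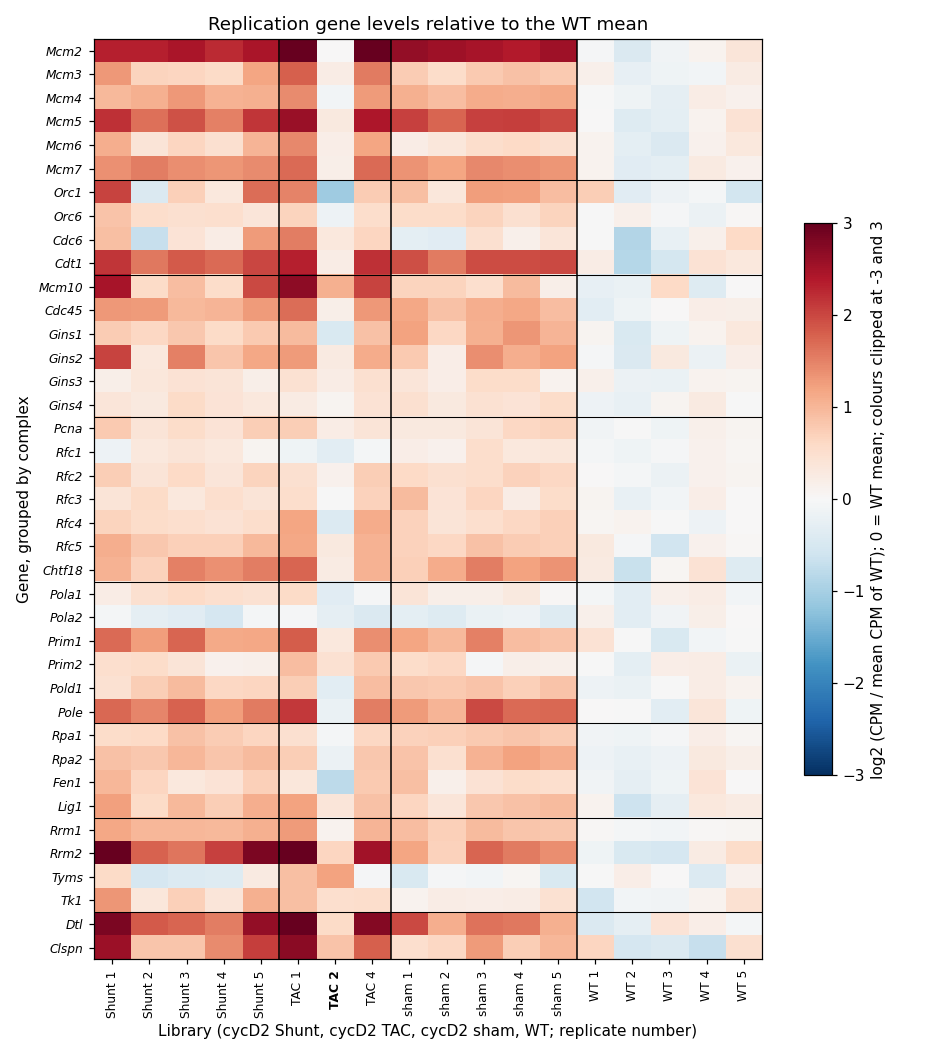
Colours give log2 of the CPM over the WT mean for the 39 replication genes (down the page, grouped by complex) in all 18 libraries (across, by group), with red for higher and blue for lower. The Shunt and sham libraries and TAC replicates 1 and 4 are red for most genes, while the library labelled cycD2 TAC replicate 2 is pale for most and lies above the highest WT library in 12 of 39 genes.

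Under pressure load in cycD2 mice the result depended on the library labelled TAC replicate 2. With all 3 TAC libraries, 2 members rose over sham (Tyms and Mcm10) and 2 fell (Rfc1 and Rpa1), while 16.4% of all genes tested rose and 14.5% fell, so the members' counts lay below the background. Without that library 10 rose (Mcm2, Mcm3, Mcm6, Mcm10, Cdc45, Rfc4, Rrm1, Rrm2, Dtl and Clspn) and 1 fell (Rfc1), against 10.9% and 10.8% of the 15033 genes then tested. The median log2 fold change over the members was 0.02 with all 3 libraries and 0.29 without it, and over all genes 0.01 and -0.01. With the replicate number as a block, 5 members rose, Cdc6, Clspn and Mcm6 being added, and 3 fell, Rpa2 being added. This block ties same-numbered libraries of all groups, WT and Shunt included, and the numbers were not shown to pair libraries. Any value without this library rests on 2 TAC libraries, of which 1 was male and 1 female by Y-linked genes, while all sham libraries were male. With Y-linked expression as a covariate in edgeR none of the 4 calls passed, and calls over all genes were 483 with it and 4600 without it. This covariate varies within a group in TAC alone, so that its slope rests on TAC replicates 1 and 2 against 4. Without the covariate 9 members were higher and 3 lower at an unadjusted p under 0.05, DESeq2 called 5 and 2, and limma-voom 2 and 2. Without TAC replicate 1, 1 member rose, and without Shunt replicate 1, which enters through the shared spread, 4 rose.

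The MCM genes show the split within TAC most plainly. Mcm2 had 80.1, 8.32 and 76.9 CPM in TAC replicates 1, 2 and 4, against 43.2 to 51.0 CPM in sham libraries. Replicates 1 and 4 lay above every sham library and replicate 2 in the WT range, and the log2 fold change was 0.22 ± 0.42 with it and 0.72 ± 0.12 without it (adjusted p = 0.727 and 0.000519). Mcm6, which had not passed between sham and WT, had 25.6, 10.7 and 21.3 CPM in the TAC libraries, against 10.9 to 14.1 CPM in sham libraries. Replicate 2 lay just below the sham range and within the WT range of 6.98 to 11.7 CPM, which overlaps that of sham for this gene. The log2 fold change was 0.59 ± 0.23 with replicate 2 (adjusted p = 0.0556) and 0.86 ± 0.19 without it (adjusted p = 0.00407). Mcm3 gave 0.92 ± 0.17 without it (adjusted p = 0.00133). Mcm7 had 26.9, 9.35 and 26.7 CPM and did not pass in either fit (adjusted p = 0.966 and 0.059), and nor did Mcm4 or Mcm5. By the sums, TAC replicates 1 and 4 averaged 229 CPM for the 6 MCM genes, 1.53 times the sham mean. Sham replicates 1 and 2, which share the clock phase of the TAC libraries, were at 152 and 138 CPM, and TAC replicate 4, male like the sham libraries, was at 219 CPM.

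Of the members scarcest in sham, Mcm10 rose, while Orc1, Cdc6 and Fen1 did not pass in either fit. Orc1 had 0.918, 0.158 and 0.558 CPM in TAC replicates 1, 2 and 4, against 0.415 to 0.782 CPM in sham libraries. Its log2 fold change was -0.22 ± 0.50 with all 3 TAC libraries (adjusted p = 0.77). Clspn, Dtl, Rrm2 and Rrm1, also given here, were more abundant. Mcm10 had 2.28, 0.749 and 1.46 CPM in TAC replicates 1, 2 and 4, each above the highest sham library at 0.685 CPM (2.73-fold, adjusted p = 0.0132; 3.38-fold and 0.00614 without replicate 2). Clspn had 4.79, 1.34 and 2.53 CPM and Cdc6 2.48, 1.06 and 1.33 CPM in the same libraries, against at most 1.79 and 1.20 CPM in sham. Clspn passed without replicate 2 (2.72-fold, adjusted p = 0.0194), and Cdc6 did not (adjusted p = 0.0773). Dtl, which was already higher in sham than in WT, had 7.31, 1.1 and 4.98 CPM, with replicates 1 and 4 above every sham library (2.87-fold without replicate 2, adjusted p = 0.0022). Rrm2 had 27.0, 4.89 and 18 CPM (2.78-fold without replicate 2, adjusted p = 0.0139) and Rrm1 54.9, 24.7 and 46.2 CPM (1.22-fold, adjusted p = 0.0207). For both subunits replicates 1 and 4 lay above every sham library and replicate 2 below every one.

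Among the other members the TAC libraries lay on either side of sham. Rfc1, the large clamp loader subunit, had 52.6, 46.0 and 55.5 CPM in the TAC libraries, all 3 below the lowest sham library at 62.7 CPM, and fell with and without replicate 2 (log2 fold change -0.47 ± 0.11 and -0.42 ± 0.13, adjusted p = 0.00417 and 0.0277). Rfc4, a small subunit of the same loader, had 20.4, 6.82 and 19.6 CPM and rose without replicate 2 (0.54 ± 0.10, adjusted p = 0.000973). Subunits of the loader thus stood on opposite sides of sham, as the plot of load against sham shows. Rfc2 had 25.1, 19.7 and 29.9 CPM and did not pass (adjusted p = 0.512, and 0.921 without replicate 2). Rpa1 had 90.4, 62.2 and 99.7 CPM, all below the lowest sham library at 106 CPM, and fell with replicate 2 (-0.39 ± 0.12, adjusted p = 0.0161) but did not pass without it (-0.23 ± 0.10, adjusted p = 0.0968). Cdt1 at 12.2, 2.80 and 11.1 CPM, Pole at 10.9, 2.17 and 7.26 CPM and Pola1 at 13.3, 7.10 and 8.76 CPM did not pass in either fit. Cdc45 had 10.9, 3.87 and 8.46 CPM and passed without replicate 2 (0.44 ± 0.15, adjusted p = 0.0429). Fen1 was at 0.958, 0.434 and 1.29 CPM and did not pass. Over all 39 members the log2 fold changes ran from -0.48 (Gins1) to 1.45 (Mcm10) with replicate 2 and from -0.42 (Rfc1) to 1.76 (Mcm10) without it.

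In Tyms the library labelled TAC replicate 2 was the highest of all 18. It had 4.35, 5.40 and 2.28 CPM in TAC replicates 1, 2 and 4, against 1.70, 2.26, 2.21, 2.42 and 1.68 CPM in sham libraries, so replicate 4 lay within the sham range. The call of a rise (log2 fold change 0.97 ± 0.27, adjusted p = 0.0106) was lost without replicate 2 (0.67 ± 0.29, adjusted p = 0.105).

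**Figure D5:**
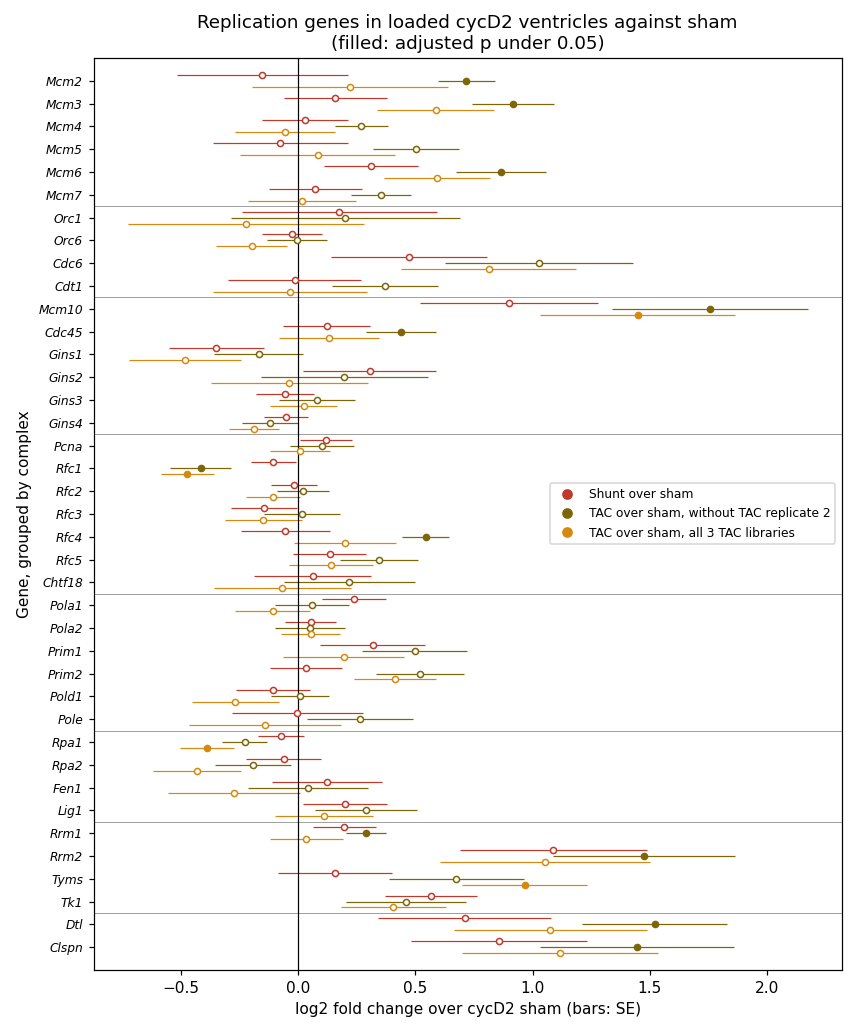
Log2 fold change of each replication gene over cycD2 sham, with the SE as bars, for Shunt, for TAC without replicate 2 and for all 3 TAC libraries; filled points passed an adjusted p of 0.05. Without replicate 2, 10 genes are filled right of 0, up to 1.76 (Mcm10), and Rfc1 is filled left of 0, while no Shunt point is filled.

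The library labelled cycD2 TAC replicate 2 differed from the other TAC libraries across the replication genes. It lay above the highest WT library in 12 of the 39 members and below the lowest in 6, while TAC replicates 1 and 4 lay above the highest WT library in 35 each. Of the 28 members higher in sham than in WT, 25 were nearer the WT mean than the sham mean in this library, against 1 of 28 in each of TAC replicates 1 and 4. Over all 2004 genes higher in sham, this held for 72.7% in replicate 2, 41.7% in replicate 1 and 32.9% in replicate 4. Its median log2 ratio to the WT mean over those 28 members was 0.16, against 1.23 and 1.05 in TAC replicates 1 and 4. It was below the lowest sham library in 30 of 39 members, and 33.2% of all genes were. Its markers of cycling cells did not sit at the WT level: Mki67 was at 17.5 and Top2a at 17.3 CPM, against 6.19 to 10.0 and 4.86 to 6.82 CPM in WT libraries. For Mki67 and Top2a this library was close to TAC replicate 4, at 17.8 and 22.0 CPM, while its MCM sum was 59.6 CPM against 219 CPM there.

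Cell markers differed between TAC and sham too. The 5 fibroblast markers summed to 1482 to 3342 CPM in TAC and 786 to 1297 CPM in sham libraries, and all 5 were called higher, or 2 of 5 without replicate 2. The 4 atrial markers summed to 2404 to 5005 CPM in TAC and 84.5 to 782 CPM in sham libraries, and 1, Nppa, was called higher with and without it. Nppa, a natriuretic peptide gene that loaded ventricles are known to switch on, had 3681, 4686 and 2042 CPM in the TAC libraries and 36.5, 53.0, 42.9, 42.7 and 51.7 CPM in the sham libraries, while Myl7, Myl4 and Sln, the other 3, did not pass. Of the 9 heart muscle markers 5 were lower and 1 higher, or 3 and 1 without it, with sums of 65707 to 98316 CPM in TAC and 96534 to 109498 CPM in sham libraries. Mki67 and Top2a rose with replicate 2 (1.08 and 1.45, adjusted p = 0.0264 and 0.00483) and without it. The 5 endothelial markers summed to 1101 to 1231 CPM in TAC and 806 to 1087 CPM in sham libraries, without overlap. Erythroid markers summed to 15.5 to 32.7 CPM in TAC and 37.1 to 399 CPM in sham libraries, also without overlap. The sums of macrophage and leukocyte markers overlapped between TAC and sham, as did those of smooth muscle and pericyte markers. The part of these cells in the values of the replication genes was not tested.

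Among the 47 other replication genes, 1 rose and 4 fell in TAC over sham with all 3 libraries, beside 16.4% and 14.5% of all genes. Without replicate 2, 6 rose and 2 fell, beside 10.9% and 10.8% of all genes. These counts lay near or below the background, so the genes named next do not set this list apart. Timeless, which guards the fork and also takes part in the clock, rose in both fits (0.48 and 0.48), and Dut, the dUTPase that keeps uracil out of DNA, and Rrm2b fell in both. The others that rose without replicate 2 were Dbf4, Topbp1, Ticrr, Dscc1 and Chaf1a, of which Dbf4, Topbp1 and Ticrr act when origins fire. All TAC libraries were in 1 clock phase and the sham libraries in both, and with the clock covariate 3 members rose (Tyms, Cdc6 and Mcm6) and 1 fell (Rfc1).

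Under volume load no replication gene passed the test against sham. Of the 39 members 0 rose and 0 fell in Shunt over sham by edgeR, with and without the library labelled TAC replicate 2, by DESeq2 and by limma-voom. At an unadjusted p under 0.05, 4 were higher (Mcm10, Rrm2, Tk1 and Clspn) and 0 lower. The background is nearly as bare, with 0.108% of all genes higher and 0.134% lower, or 0.133% and 0.16% without that library, so the members' count is near the background, and a miss does not show that the levels were equal. Without that library 6 members were higher and 1 lower at an unadjusted p under 0.05. The median log2 fold change over the members was 0.07, within a range of -0.35 (Gins1) to 1.09 (Rrm2), and the sum over all members was 637 ± 33.8 CPM in Shunt and 625 ± 36.1 CPM in sham ventricles (SD, n = 5 each).

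Several members varied widely among the Shunt libraries. Rrm2 had 29.8, 10.7, 9.46, 13.0 and 22.2 CPM in Shunt replicates 1 to 5. Of these libraries 4 lay above the highest sham library, at 10.5 CPM, and replicates 1 and 5 were the highest (log2 fold change 1.09 ± 0.40, adjusted p = 0.233). The same 2 libraries were the highest for Mcm10, at 1.96, 0.530, 0.671, 0.521 and 1.4 CPM in replicates 1 to 5, and for Clspn, at 4.38, 1.31, 1.31, 1.97 and 3.09 CPM. Dtl had 5.31, 2.65, 2.51, 2.16 and 4.65 CPM, Tyms 3.46, 1.63, 1.74, 1.79 and 2.83 CPM and Cdc6 1.62, 0.530, 1.14, 1.01 and 2.08 CPM, again with replicates 1 and 5 highest. Mcm6 had 19.9, 12.3, 14.6, 13.0 and 19 CPM in the same order. Mki67 followed this pattern at 33.9, 8.20, 12.4, 14.6 and 24.6 CPM, and so did Top2a at 32.5, 8.65, 10.5, 13.5 and 23.1 CPM. Replicates 1 and 5 were also the highest for markers of other kinds: Nppa had 330.0, 53.5, 25.6, 45.6 and 222 CPM, Alas2, an erythroid gene, 31.4, 3.55, 3.02, 1.71 and 16.9 CPM and Actc1, a heart muscle actin gene, 16165, 9780.0, 7464, 7519 and 13254 CPM. Their part in the values of the replication genes was not tested. Shunt replicate 1 was the highest of the 5 Shunt libraries in 22 of 39 members, while it was the highest in 29.7% of all genes. It lay above every sham library in 23 members and replicate 5 in 19, against 5, 11 and 4 in replicates 2, 3 and 4, and 19% to 24.0% of all genes lay above every sham library in these 5.

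Many members overlapped sham. Mcm2 had 41.3, 41.9, 45.1, 38.8 and 45.2 CPM in the Shunt libraries, of which replicates 1, 2 and 4 lay below the lowest sham library at 43.2 CPM. Mcm7 had 21.2, 24.0, 21.5, 20.5 and 21.9 CPM in the Shunt libraries, within or next to the sham range. Rpa1 at 95.2, 98.3, 119, 109.8 and 101 CPM and Rfc1 at 51.7, 71.2, 75.8, 71.2 and 61.0 CPM overlapped sham too, although 3 Rpa1 values lay below the lowest sham library. Rrm1 had 50.8, 45.6, 45.3, 44.8 and 47.8 CPM, so that all 5 Shunt libraries lay above the highest sham library at 43.8 CPM, some by a small margin (log2 fold change 0.20 ± 0.13, adjusted p = 0.524). Cdt1 at 10.7, 7.22, 8.65, 7.78 and 9.69 CPM, Cdc45 at 8.35, 8.20, 6.74, 6.89 and 8.26 CPM and Pole at 8.31, 6.94, 8.58, 5.92 and 7.41 CPM also overlapped it, as did Rfc2 at 29.7, 23.5, 27.2, 23.1 and 28.6 CPM, Rfc4 at 14.3, 13.2, 12.7, 12.2 and 12.9 CPM and Fen1 at 1.5, 1.18, 0.939, 1.01 and 1.24 CPM. Pola1 had 10.5, 12.6, 13.6, 12.8 and 12.3 CPM, of which 4 lay above the highest sham library at 11.8 CPM, and did not pass (adjusted p = 0.439). No marker list of another cell type had a call between Shunt and sham, and the heart muscle markers summed to 83437 to 91715 CPM in Shunt and 96534 to 109498 CPM in sham libraries. The median coefficient of variation over the members was 13.9% in Shunt, 39.9% in TAC, 11.5% in sham and 17.8% in WT libraries, beside 11.7%, 14.4%, 11.4% and 11.3% over all genes. The TAC values include the library labelled TAC replicate 2, whose Ccnd2 goes against its label.

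Between the loads, 2 members were higher in Shunt than in TAC (Rfc1 and Rpa1) and 1 lower (Tyms), while 13.3% of all genes were higher and 13.6% lower. Their log2 fold changes were 0.37 ± 0.11 for Rfc1, 0.32 ± 0.12 for Rpa1 and -0.81 ± 0.26 for Tyms (adjusted p = 0.0219, 0.049 and 0.0298), with the values of each library as given above. Without the library labelled TAC replicate 2 none of these 3 passed, 0 members were higher and 4 were lower (Mcm2, Mcm3, Mcm5 and Rfc4), against 8.95% and 9.03% of all genes. At an unadjusted p under 0.05 that fit had 1 member higher and 11 lower. Mcm2 then had a log2 fold change of -0.88 ± 0.12 (adjusted p = 0.000191), Mcm3 -0.77 ± 0.17, Rfc4 -0.61 ± 0.10 and Mcm5 -0.59 ± 0.18 (adjusted p = 0.0323). All Shunt libraries were in one clock phase and all TAC libraries in the other, so that phase and load cannot be told apart. With the clock covariate in edgeR none of the 3 calls passed. Of the TAC libraries only replicate 4 differed in sex from Shunt.

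Set against WT, most replication genes were higher in the loaded ventricles too. In Shunt 31 of 39 members were higher than in WT and 0 lower, beside 15.6% and 16.7% of all genes, and 33 and 0 without the library labelled TAC replicate 2, beside 17.2% and 16.7%. In TAC 29 were higher and 0 lower, beside 17.1% and 16.9% of all genes, and 33 and 0 without it, beside 15.6% and 15.5%. At an unadjusted p under 0.05, 1 member was lower in Shunt (Pola2) and 0 in TAC, with 0 in both without that library, and DESeq2 and limma-voom called 0 lower in either. Without TAC replicate 1 the count for TAC was 18. These comparisons share the WT libraries with that of sham and WT. Mcm2 was 5.13-fold higher in Shunt than in WT and 9.49-fold higher in TAC without replicate 2, Rrm2 5.42-fold and 7.17-fold, and Dtl 4.61-fold and 8.20-fold. Sex differs between the Shunt and WT libraries throughout, and with the covariate of Y-linked genes, whose slope rests on the TAC libraries as said, 9 members were called higher in Shunt and 18 in TAC. Over all genes, calls in either direction were then 773 in Shunt and 1834 in TAC, against 4810 and 5054 without the covariate. Among the 47 other genes, 26 were higher and 2 lower in Shunt than in WT, and 23 higher and 6 lower in TAC, or 32 and 4 without replicate 2. Gmnn was lower in both, by a log2 fold change of -0.69 ± 0.10 in Shunt and -0.84 ± 0.11 in TAC, or -0.95 ± 0.13 without replicate 2.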

How the data were processed

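Left ventricular RNA was extracted with the RNeasy Fibrous Tissue kit and made into TruSeq RNA v2 libraries, which keep no strand, per the labels' protocols. The authors deposited whole-number counts per gene for each library. The submitters' processing notes name STAR 2.3.0e, HTSeq 0.6.1p1, CASAVA 1.8.2, SAMtools 0.1.19, FastQC, DESeq2 1.8 and the build GRCm38/mm10. The annotation release and the strand setting of the counting are not given in the sources used here. Rows that name no gene were left out of library sizes. Of reads counted to a gene, ambiguous or without a feature, 13.6% to 22.8% had no feature. GENCODE M21 matched 36602 of the 38355 gene IDs and gave names, exons and coordinates.

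From the counts, edgeR 4.0.16 (R 4.3.3) fitted all 18 libraries with 1 mean per group, after TMM scaling and filterByExpr (minimum count 10), by the robust quasi-likelihood test with Benjamini-Hochberg adjustment over 14876 genes. A gene was called at an adjusted p under 0.05. The biological coefficient of variation was 0.16. The alternatives were RLE and upper quartile scaling, no filter and a stricter one (1 CPM in 3 libraries), DESeq2 1.42.0, limma-voom (limma 3.58.1), a replicate block, fits of each pair of groups alone, clock and Y-linked covariates, and each library left out. The fits were tested on simulated data. No pair of libraries of a group agreed within sampling noise (lowest chi-square per gene 7.08).

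The main fit used no pairing by replicate number. Same-numbered deviations from the group means correlated at 0.129, 0.151 and 0.157 between TAC and sham, all above 0.1. Other pairs of groups held both higher and lower values, such as 0.303 and -0.132 between sham and WT, and 0.318 and -0.264 between Shunt and sham. These correlations are weak and do not show that libraries of any groups were paired.

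The members and lists were chosen with earlier results of these data known. Values in every library are given for the members with the smallest and the largest p of each complex between sham and WT, for members called in the comparisons among cycD2 groups, and for the 2 called genes with the smallest p of each other list, some by means. Other genes named with values, among them Mcm2, Mcm5, Rrm2 and Pola2, do not meet it and were chosen with their values in view.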

Additional observations from a re-analysis of the deposited data

Results flagged for a closer look

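Of 117 groups of 5 libraries, 1 for each member in Shunt, sham and WT, 2 held a library that stood apart from the other 4 by Dixon's test, and chance gives about 1 in 20. Orc1, a subunit of the origin recognition complex, was at 0.5484 CPM in WT replicate 1, and the other WT libraries were at 0.2229 to 0.3165 CPM. Cdt1, the licensing factor, was at 7.091 CPM in sham replicate 2, and the other sham libraries were at 9.246 to 9.561 CPM. The lower Cdt1 value still lay above every WT library.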

How the results depend on the processing

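The count of members higher in sham than in WT was within 1.5 times of 28 under all alternatives run, with 22 by limma-voom, and the count lower became 1 (Pola2) with the clock covariate, the Y-linked covariate or the pair of groups alone, and ranged from 0 to 1 with each library left out. For TAC over sham, 2 higher became 5 with DESeq2, 5 with the replicate block and 0 with the Y-linked covariate (1 to 10 with each library left out), and 2 lower became 1 with the clock covariate, 0 with the Y-linked covariate and 1 with the pair alone (1 to 3). For Shunt over TAC, 2 higher became 1 with upper quartile scaling, 1 with no filter, and 0 with the clock covariate or the pair alone (0 to 2), and 1 lower became 0 with the replicate block, the clock covariate or the pair alone (0 to 4). For Shunt over sham 0 were called in each direction throughout. With the Y-linked covariate the counts higher than WT were 18 in TAC (18 to 33 with each library left out) and 9 in Shunt, and the count lower in Shunt was 0 to 1 with each library left out. Single genes changed sign in log2 fold change. In sham over WT Cdc6 was at -0.069 with the clock covariate and at -0.057 to 0.29 with each library left out. In TAC over sham Mcm2 was at -0.35 and Rrm1 at -0.042 with limma-voom, and Rrm1 at -0.0040 with the replicate block. With each library left out, Mcm2 ran from -0.15 to 0.72, Cdc45 from -0.20 to 0.44, Rfc4 from -0.043 to 0.54 and Rrm1 from -0.21 to 0.29, the lowest without TAC replicate 1 and the highest without TAC replicate 2. In Shunt over TAC Mcm2 was at 0.20 and Mcm5 at 0.13 with limma-voom, and Mcm2 was at 0.026, Mcm5 at 0.12 and Rfc4 at 0.0084 with the Y-linked covariate. Mcm5 ran from -0.59 to 0.20 with each library left out. Tyms in TAC over WT was at -0.037 with the Y-linked covariate. The cause of these changes was not tested. For sham over WT the replicate block kept all 28 calls and added Clspn, Mcm6 and Orc1, although the replicate numbers were not shown to pair libraries. Members under 1 CPM, such as Orc1 and Mcm10, have few counts and wide errors.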
